A study of Mus musculus with 473 samples.

Results

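Genome-wide association studies of Parkinson disease have placed common risk variants at many human loci, and 43 genes lying at those loci are described here by their mouse counterparts in single cells. The 43 were taken as a list of gene symbols, and all 43 had 1 row each among the 28952 features of the deposited table. Parkinson disease is known for the loss of dopaminergic neurons of the substantia nigra, while neighbouring dopaminergic neurons of the ventral tegmental area are affected less. Much of the genetics of the disease points to lysosomes, to the traffic of endocytic vesicles and to synapses, and the gene that carries the risk at a locus is often not known. A gene of the list is therefore a gene near an association, not a gene shown to cause the disease.

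The values come from 473 single cells sequenced by Smart-Seq2, which reads poly(A) transcripts along their whole length without marking the strand. The mice were Th:EGFP carriers of the transgene Tg(Th-EGFP)DJ76Gsat/Mmnc, in which a bacterial artificial chromosome with the tyrosine hydroxylase (Th) regulatory region drives EGFP. The carriers came from hemizygous males crossed with wild-type females on the Swiss Webster background, so all cells carry the transgene and no group without it was measured. The groups were midbrain (MB), forebrain (FB, dissected as hypothalamus) and olfactory bulb (OB) at postnatal day 7 (P7), and midbrain and forebrain at embryonic day 15.5 (E15.5). Tissue of 5 P7 pups or 4 E15.5 embryos was pooled for each region, so each group is 1 pool of animals and its cells are not replicates. No test was therefore made, and the differences have no replicate check. P7 tissue was dissociated for longer and went through a density gradient, and the ages differ in sort date and share no library plate. Age therefore cannot be told apart from handling, sort date or plate. In FB it also cannot be told apart from the tissue taken, which is named as hypothalamus at P7 and only as forebrain at E15.5.

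Of the 473 cells, 396 passed the authors' quality control: 75 of P7 MB, 81 of P7 FB, 68 of P7 OB, 88 of E15.5 MB and 84 of E15.5 FB. The labels also place each cell in 1 of 13 clusters, such as P7.MB.4. The clusters were made from the genes of these same cells, so their differences are a description. On 2 of the 3 P7 library plates the number of genes in a cell's label did not match the column of the same name (r = -0.0338 and -0.0519 across cells). After the columns of those 2 plates were exchanged well by well, r was 0.999 on both. All values below use the exchange, and P7 differences are also given for the plate matched by name alone, which holds 30 P7 MB, 31 P7 FB and 16 P7 OB cells. FPKM values (fragments per kilobase of transcript and sequencing depth) should allow for depth, but their sum per cell differed by plate. Its median was 493126 to 545503 on the P7 plate matched by name, 191477 to 205564 on exchanged plate A, 241292 to 276015 on exchanged plate B and 691823 or more on the E15.5 plates. Levels are compared within an age first for that reason. Of the values of 6 genes that every cell uses, 0.444% in P7 MB and up to 1.59% in E15.5 FB were exactly 0, so a gene without a value is described as listed at 0.

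The promoters of 4 of the genes are shown. Some belong to neighbouring genes of one locus that were found in very different shares of midbrain cells. The other is that of Crhr1, whose share of cells differed between the midbrain clusters below. Nucks1, Rab29 and Slc41a1 lie within one stretch of chromosome 1 and were found in 100%, 2.67% and 37.3% of P7 MB cells. Each sequence is the plus strand up to 250 bases before the RefSeq start (GRCm38.p6), shortened where an annotated exon lies in that window, and capitals mark every CG.
Nucks1: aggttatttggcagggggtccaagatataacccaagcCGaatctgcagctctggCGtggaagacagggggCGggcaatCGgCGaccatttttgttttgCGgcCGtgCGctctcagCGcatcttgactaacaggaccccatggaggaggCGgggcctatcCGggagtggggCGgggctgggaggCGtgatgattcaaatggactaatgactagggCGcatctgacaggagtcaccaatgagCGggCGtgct
Rab29: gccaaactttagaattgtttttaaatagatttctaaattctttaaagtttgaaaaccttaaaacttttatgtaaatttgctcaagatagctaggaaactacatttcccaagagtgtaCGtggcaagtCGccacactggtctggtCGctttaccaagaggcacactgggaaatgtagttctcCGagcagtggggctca
Slc41a1: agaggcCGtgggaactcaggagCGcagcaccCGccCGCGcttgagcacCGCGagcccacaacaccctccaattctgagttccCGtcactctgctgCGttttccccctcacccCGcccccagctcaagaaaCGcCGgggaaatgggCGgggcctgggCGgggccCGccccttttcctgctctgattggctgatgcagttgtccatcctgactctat
Crhr1: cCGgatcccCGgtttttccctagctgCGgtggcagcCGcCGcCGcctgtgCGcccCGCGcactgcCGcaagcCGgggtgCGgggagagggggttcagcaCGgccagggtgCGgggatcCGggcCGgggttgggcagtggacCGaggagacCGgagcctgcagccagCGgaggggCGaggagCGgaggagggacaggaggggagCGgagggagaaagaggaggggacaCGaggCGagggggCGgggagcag
These are chr1:131910208-131910457 for Nucks1, chr1:131867027-131867223 for Rab29, chr1:131827762-131827976 for Slc41a1 and chr11:104132531-104132780 for Crhr1. In GENCODE M21, used for the gene coordinates below, Slc41a1 starts earlier, at chr1:131827493. Its printed stretch thus lies inside that annotated gene, unlike those of Nucks1, Rab29 and Crhr1. The printed Nucks1 sequence holds 16 CG, that of Rab29 4 in 197 bases, that of Slc41a1 15 in 215 bases and that of Crhr1 25. Over the full 250 bases, 27.6% of all genes had at least the 16 CG of Nucks1 and of Slc41a1, 42.8% had at least the 9 of Rab29 and 11.8% at least the 25 of Crhr1. A promoter was listed for 35 of the 43 genes, with a median of 18 CG against 6 over 27025 genes. The median was 19.5 CG in the 16 genes found in at least 50% of P7 MB cells, 23 in the 13 found in 5 to 50%, and 5.5 in the 6 found in fewer than 5%. A CG count is a description of these letters alone, and whether it goes with the share of cells was not tested.

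Of the 43 loci genes, 41 were found in at least 1 P7 midbrain cell, and some in every cell. A cell is counted as having a gene at an FPKM of at least 1, and intervals are exact 95% binomial (Clopper-Pearson) intervals that cover counting error only. In the 75 P7 MB cells, 11 of 43 genes were found in at least 90% of cells, where 6.08% of all features were. At least 50% of cells held 19 of the 43 genes, against 19.4% of all features, and 8 were found in under 5% of cells, against 55.8% of all features. A P7 MB cell had a median of 20 of the 43 genes (13 to 29), a P7 FB cell 17 and a P7 OB cell 13.5. The number of genes per cell in the labels followed the same order, with medians of 6185, 4916 and 3290. As a share of the genes in a cell, the loci genes made up a median of 0.339% in P7 MB, 0.331% in P7 FB and 0.387% in P7 OB, so fewer of them in OB cells went with fewer genes of any kind.

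**Figure D1:**
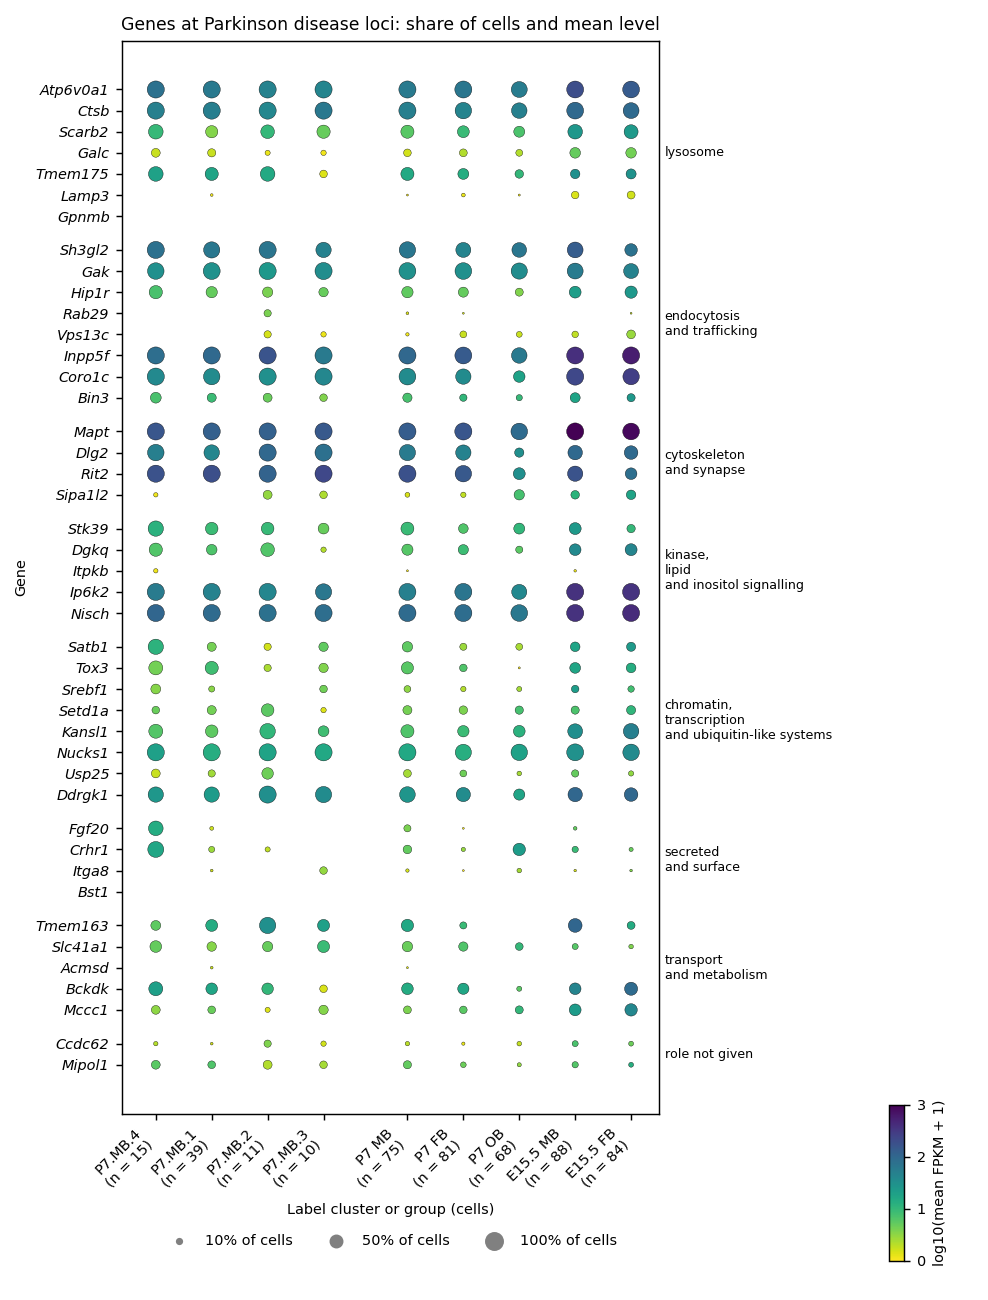
Share of cells and mean level of the 43 genes. Rows are genes grouped by role, columns are the 4 P7 midbrain clusters and then the 5 groups, dot size is the share of cells at an FPKM of at least 1 and colour is log10(mean FPKM + 1). Mapt, Inpp5f and Nisch show large dots in every column, Fgf20 and Crhr1 show their large midbrain dots in P7.MB.4, and Bst1 and Gpnmb show none.

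Among the genes of the cytoskeleton and synapse, Rit2, a neuronal Ras-like GTPase (ENSMUSG00000057455.12), had the highest level of the list in P7 MB. Its FPKM ran from 27.8 to 636 over the 75 cells with a median of 119 (mean 180.5 ± 141, SD over cells), and no cell lacked it. Mapt, which encodes the microtubule-binding protein tau, ran from 27.3 to 366 with a median of 101. Dlg2, a scaffold of postsynaptic densities, was found in 67 of 75 cells with a mean of 56.4. Sipa1l2, a Rap GTPase activator, was found in 6 of 75 cells. The synaptic and cytoskeletal genes thus held both the most abundant genes of the list and a rare one.

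The 7 lysosomal genes were split in the same way. Atp6v0a1, a membrane subunit of the proton pump that acidifies lysosomes and synaptic vesicles, ran from 8.25 to 170 FPKM with a median of 51 and was found in every P7 MB cell. Ctsb, the protease cathepsin B, ran from 8.36 to 179 with a median of 37.5, also in every cell. Tmem175, a lysosomal cation channel, was found in 44 of 75 cells and Scarb2, the membrane protein that carries glucocerebrosidase to lysosomes, in 44 of 75. Galc, a galactolipid-degrading enzyme, was found in 15 cells. Lamp3 passed an FPKM of 1 in 1 cell (1.05), and Gpnmb, a glycoprotein known from macrophages and microglia, in none, with a single value above 0 of 0.904.

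The 8 genes of endocytosis and vesicle traffic included 4 that were found in at least 90% of P7 MB cells. Inpp5f, an inositol phosphatase of endosomes, ran from 10.4 to 408 FPKM with a median of 75.3 and was in every cell. Gak, the kinase that helps to uncoat clathrin-coated vesicles, was in 73 of 75 cells with a mean of 30.1. Sh3gl2, the endophilin A1 of synaptic vesicle endocytosis, was in 69 of 75 with a mean of 64.8, and Coro1c, an actin-binding coronin, in 72 with a mean of 36. At the other end, Rab29, a GTPase known to recruit the kinase LRRK2, was in 2 cells, both of P7.MB.2, and Vps13c, a lipid transfer protein, in 3.

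Signalling and nuclear genes ranged from every cell to 1 cell. Nisch, the cytosolic scaffold nischarin, ran from 15.6 to 353 FPKM with a median of 73.4 in all 75 cells, and Ip6k2, an inositol hexakisphosphate kinase, was found in 74. Nucks1, a DNA-binding nuclear protein, was in all 75 cells but lower, at 1.37 to 51.5 with a median of 12.5. Ddrgk1, of the ubiquitin-like UFM1 pathway, was found in 63 cells, and the other 6 chromatin, transcription and ubiquitin genes were found in 12 to 44 cells. The secreted and surface genes were the sparsest role. Crhr1 was in 19 cells, Fgf20 in 13 and Itga8, an integrin subunit, in 3. Bst1, an NAD-consuming surface enzyme, was listed at 0 in all 75 P7 MB cells, which allows a share of up to 4.80%, and at 0 in the other 4 groups as well. Acmsd, an enzyme of tryptophan breakdown, had 1 P7 MB cell at 29, and Itpkb, an inositol trisphosphate kinase, had 1 cell at 2.86. Of 8 microglial marker genes, 6 were listed at 0 in P7 MB and the highest summed level in a cell was 8.21, so markers of that cell type were at or near 0 in these sorted cells.

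The labelled P7 midbrain clusters were set against markers before use. P7.MB.4 had the highest means of Slc6a3 (2078), the dopamine transporter, and of Aldh1a1 (2838), Sox6 (21.5) and Lmo3 (386), which mark substantia nigra neurons, against 474, 430, 5.48 and 29.99 in P7.MB.1. P7.MB.1 was higher in Calb1, Otx2, Grp, Neurod6 and Cck, which mark ventral tegmental neurons (36.3, 1.11, 28.2, 0.902 and 28.7 in P7.MB.4 against 91.4, 17.9, 144, 52.6 and 761 in P7.MB.1). Over the whole lists, 11 of 13 nigral markers were higher in P7.MB.4 (not Igf1 and Agtr1a) and 12 of 12 ventral tegmental markers were higher in P7.MB.1. P7.MB.4 is therefore called nigra-like and P7.MB.1 ventral tegmental-like. P7.MB.3 was led by Vip (5657), and in P7.MB.2 the dopamine transporter was at 0.375 and Pitx3 was listed at 0. Fgf20 is one of the 13 nigral markers used, so its level in P7.MB.4 is part of that naming and no separate result.

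Of the 43 genes, 5 differed by at least 2-fold between nigra-like P7.MB.4 (15 cells) and ventral tegmental-like P7.MB.1 (39 cells), 4 higher and 1 lower. Over all features 7.69% differed as much. The 4 higher genes include Fgf20, which was part of the naming of P7.MB.4. On the plate matched by name alone, with 7 and 15 cells, 6 of the 43 were higher (6.74% of all features) and 4 lower (7.44%). Folds are log2((mean + 1)/(mean + 1)), which understates differences of low genes. The genes per cell differed as well (median 7030 in P7.MB.4, 5903 in P7.MB.1), and so did the number of loci genes (24 and 19). Their part in the higher values was not tested. Among genes whose mean in either cluster was 5 or more, the median log2 fold was 0.21 over 27 loci genes and 0.22 over all features.

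Fgf20, a secreted fibroblast growth factor (ENSMUSG00000031603.14, chr8:40279166-40308331, minus strand), was found in 11 of 15 P7.MB.4 cells (73.3%, 44.9 to 92.2) and in 2 of 39 P7.MB.1 cells (5.13%, 0.627 to 17.3). Its FPKM ran from 0 to 45.1 with a median of 11.7 in P7.MB.4, against 0 to 17.2 with a median of 0 in P7.MB.1. The means were 13.3 and 0.670, a log2 fold of 3.09. On the plate matched by name it was found in 7 of 7 P7.MB.4 cells (mean 22.4) and listed at 0 in 15 of 15 P7.MB.1 cells. On each exchanged plate 2 of 4 P7.MB.4 and 1 of 12 P7.MB.1 cells had it, with log2 folds of 1.66 (A) and 1.52 (B). It was listed at 0 in the 11 P7.MB.2 and the 10 P7.MB.3 cells. Of its exonic bases, 12% overlap Micu3 on the opposite strand, and reads there cannot be told apart. Micu3 had a mean of 63 in P7.MB.4, 31.8 in P7.MB.1 and 29.4 in P7 OB. No P7 OB cell reached an FPKM of 1 for Fgf20. The part of shared reads in the Fgf20 values was not tested.

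Crhr1, the receptor of corticotropin-releasing hormone (ENSMUSG00000018634.10, chr11:104132855-104175523, plus strand), was found in 13 of 15 P7.MB.4 cells and in 5 of 39 P7.MB.1 cells. It ran from 0 to 53 with a median of 13.3 in P7.MB.4, against 0 to 20.4 with a median of 0 in P7.MB.1. The ranges overlapped, and the means were 15.8 and 1.80, a log2 fold of 2.58. That fold was 3.24 on the plate matched by name, where 7 of 7 P7.MB.4 and 2 of 15 P7.MB.1 cells had the gene, 3.36 on exchanged plate A and 0.49 on exchanged plate B. One of 11 P7.MB.2 cells had it, and all 10 P7.MB.3 cells were listed at 0. Every P7.MB.4 cell had Fgf20 or Crhr1 and 9 of 15 had both, whereas no P7.MB.1 cell had both and 7 of 39 had either. Since Fgf20 was part of the naming of P7.MB.4, these joint counts are a description and no separate result.

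Satb1, a chromatin organiser (ENSMUSG00000023927.15, chr17:51736187-51833290, minus strand), was found in 12 of 15 P7.MB.4 cells and 11 of 39 P7.MB.1 cells. It ran from 0.112 to 34.4 with a median of 7.57 in P7.MB.4, against 0 to 44.3 with a median of 0 in P7.MB.1, so more nigra-like cells had it while the highest single cell was ventral tegmental-like. Its log2 fold was 1.49 over all cells and 1.85 on the plate matched by name, but -0.38 on exchanged plate A. Scarb2 had means of 8.73 in P7.MB.4 and 2.62 in P7.MB.1, a log2 fold of 1.43 that was -1.42 on exchanged plate A. Neither kept its direction over the 3 plates, unlike Fgf20 and Crhr1.

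Tmem163, a zinc transporter of vesicle membranes (ENSMUSG00000026347.13, chr1:127486546-127679548, minus strand), was the gene lower in P7.MB.4. It was found in 5 of 15 P7.MB.4 and 19 of 39 P7.MB.1 cells, ran from 0 to 37.6 in P7.MB.4 against 0 to 93.9 in P7.MB.1, and had means of 4.62 and 13.4. The log2 fold was -1.35, and -1.61, -1.79 and -0.82 on the plate matched by name, A and B. In P7.MB.4, 54.2% of its total came from 1 cell. Tmem163 was found most widely in P7.MB.2, in 10 of 11 cells with a mean of 31.4, and it was in 5 of 10 P7.MB.3 cells. Against the other P7 MB cells (mean 12.3) P7.MB.2 was higher by 1.29 on the log2 scale, but -0.52 on the plate matched by name.

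**Figure D2:**
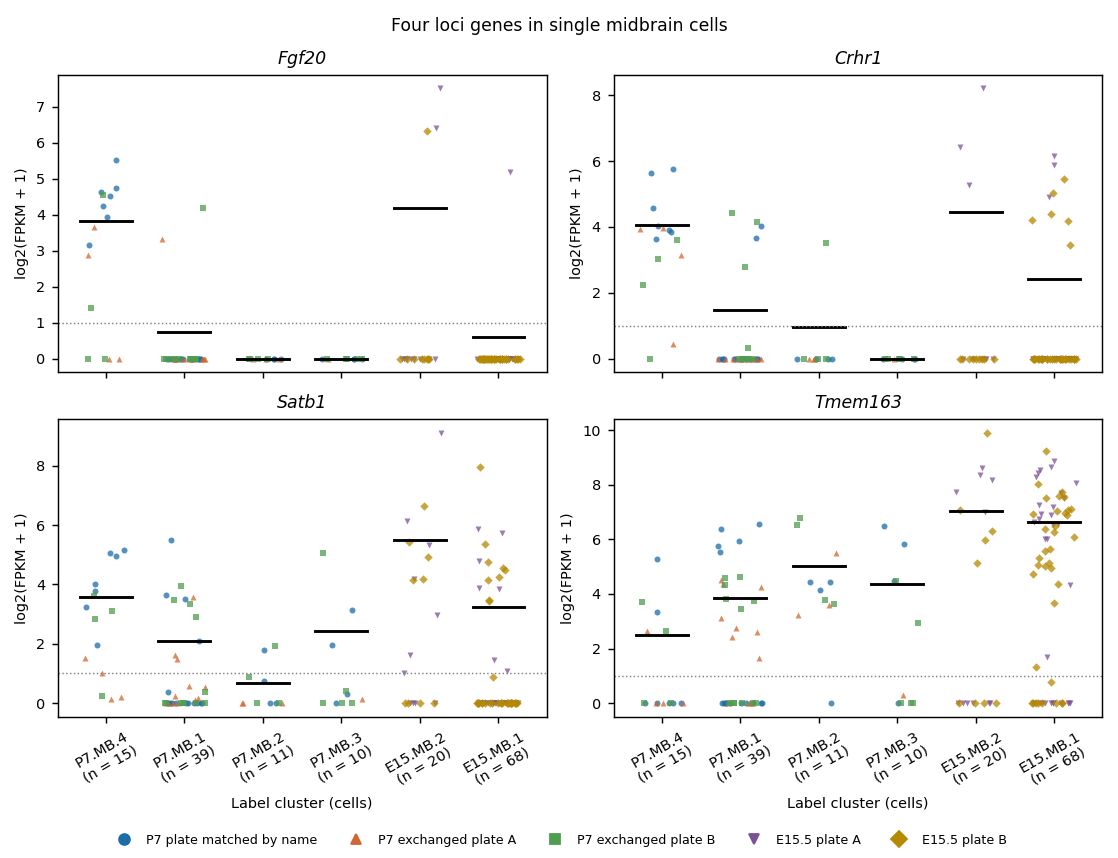
Fgf20, Crhr1, Satb1 and Tmem163 in single midbrain cells of the P7 and E15.5 clusters. Points are cells on a log2(FPKM + 1) axis, shaped and coloured by library plate, black bars are log2(mean + 1) and the dotted line is an FPKM of 1. Fgf20 lies above the line in 11 of 15 P7.MB.4 and 2 of 39 P7.MB.1 cells, and Tmem163 in 10 of 11 P7.MB.2 cells.

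The other P7 midbrain clusters differed from the remaining P7 MB cells in 11 genes for P7.MB.3 (2 higher, 9 lower; 13% of all features), 12 for P7.MB.2 (5 higher, 7 lower; 10.1%) and 5 for P7.MB.1 (1 higher, 4 lower; 5.38%). P7.MB.4 differed from the rest in 4 (3 higher, Fgf20 of the naming among them, and 1 lower, against 6.96% of all features). On the plate matched by name alone, where these clusters have 4, 4, 15 and 7 cells, the counts were 20 for P7.MB.3 (21.5% of all features), 14 for P7.MB.2 (20.3%), 10 for P7.MB.1 (12.5%) and 9 for P7.MB.4 (13.4%). In P7.MB.3, which has 10 cells with a median of 5223.5 genes, the lysosomal channel Tmem175 was found in 2 cells and did not pass 2.25, with means of 0.452 in P7.MB.3 and 16.6 in the other cells. Its log2 fold was -3.60, with -4.56, -3.53 and -2.76 on the 3 plates. Tmem175 shares 35.3% of its exonic bases with Dgkq on the opposite strand, and Dgkq had a log2 fold of -1.59 here. The part of shared reads in the Tmem175 values was not tested. Bckdk, the kinase that switches off branched-chain amino acid breakdown, was also in 2 of the 10 cells, with means of 0.521 in P7.MB.3 and 15.9 in the others. Its log2 fold was -3.47, and -4.50, -2.33 and -2.57 on the 3 plates, where exchanged plate A has 1 cell of P7.MB.3. Tox3, an HMG-box nuclear protein, averaged 7.34 in P7.MB.1 and 2.60 in the other P7 MB cells.

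Between regions at P7, few of the genes set midbrain apart from forebrain. Fgf20 alone differed by at least 2-fold in P7 MB against P7 FB (1 gene higher, 0 lower; 5.03% of all features), with 13 of 75 P7 MB and 1 of 81 P7 FB cells. The means were 3.00 and 0.144 and the log2 fold was 1.81 (2.19 on the plate matched by name). Against P7 OB, 10 genes differed in P7 MB (6 higher, 4 lower; 13.9%) and 8 in P7 FB (5 higher, 3 lower; 13.1%). On the plate matched by name alone the counts were 3 for MB over FB (11.1% of all features), 16 for MB over OB (22.3%) and 14 for FB over OB (21.8%). The last pair of comparisons shares the OB cells, so their values stand side by side and not as separate evidence.

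Rit2 ran from 27.8 to 636 in P7 MB (median 119), from 0 to 1244 in P7 FB (median 93.5) and from 0 to 446 in P7 OB (median 0.802). It was found in 75 of 75, 75 of 81 and 33 of 68 cells, and the means were 180.5, 149 and 32.1. The log2 fold was 2.46 for MB over OB, with 2.47, 1.51 and 2.33 on the 3 plates, and 2.18 for FB over OB, with 2.19, 1.55 and 2.10. Between MB and FB the log2 fold was 0.28.

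Crhr1 was highest in OB. Its means were 4.23 in P7 MB, 2.00 in P7 FB and 21.8 in P7 OB, and it was found in 19 of 75, 5 of 81 and 36 of 68 cells. The medians were 0 in P7 MB and P7 FB and 2.68 in P7 OB, where 1 cell reached 337. The log2 folds were -2.12 for MB over OB (-2.27, -2.55 and -2.30 on the 3 plates) and -2.93 for FB over OB (-2.60, -4.06 and -4.29).

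Tmem163 was found in 39 of 75 P7 MB cells, 14 of 81 P7 FB cells and none of 68 P7 OB cells, which allows a share of up to 5.28% of OB cells. Its means were 15.07 and 8.15 in P7 MB and P7 FB, and no OB cell passed 0.108. The size of its log2 fold of MB over OB (4.0) is therefore set by the 1 added to the means. On every plate MB cells had it and OB cells did not. The P7 FB cells with Tmem163 all belonged to P7.FB.2 (14 of 55), and none of the 26 P7.FB.1 cells had it.

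Bckdk averaged 13.8 in P7 MB, 15.6 in P7 FB and 4.84 in P7 OB, and was found in 35 of 75, 35 of 81 and 6 of 68 cells. The log2 fold of MB over OB was 1.34 in all, 2.20 on the plate matched by name, and 0.11 and 0.24 on the exchanged plates. That of FB over OB was 1.50, with 2.36, 0.31 and 0.78. The 2-fold differences of Bckdk thus rest on the plate matched by name. Inpp5f averaged 139 in P7 FB and 59.6 in P7 OB, with a log2 fold of 1.21 in all that was 0.78 on the plate matched by name. The other genes past 2-fold in P7 MB over P7 OB had means under 10. Tox3, Satb1 and Fgf20 were higher in MB, and Sipa1l2, the leucine-degrading enzyme subunit Mccc1 and the magnesium transporter Slc41a1 were lower.

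**Figure D3:**
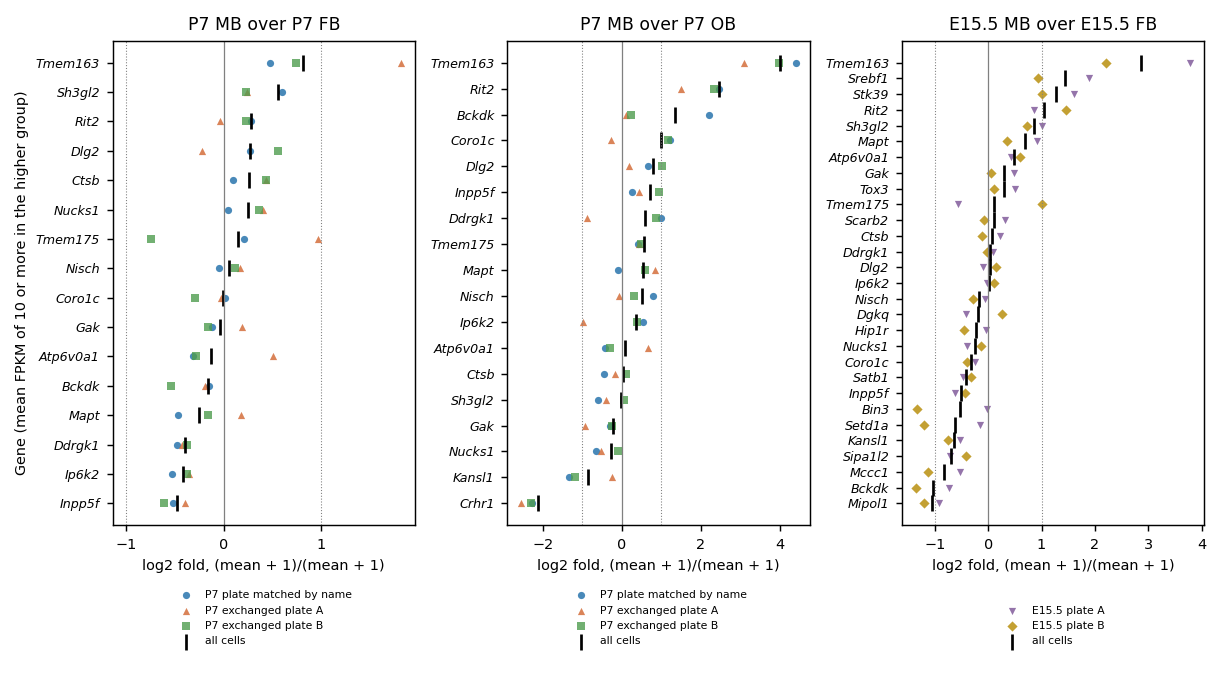
Log2 folds between regions for loci genes whose higher group mean reached an FPKM of 10. Black bars are all cells, symbols are single library plates and dotted lines mark 2-fold; rows are genes. In P7 MB over P7 OB, Tmem163 and Rit2 lie to the right and Crhr1 to the left on every plate, Tmem163 against OB cells that lack it, while Bckdk passes 2-fold on the plate matched by name alone.

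Within the olfactory bulb and forebrain, clusters compared after their values had been seen also split some of the genes. In P7.OB.3 (15 cells) against the other 53 OB cells, 6 genes were at least 2-fold higher (8.13% of all features) and 7 lower (6.03%). On the plate matched by name alone, with 6 and 10 cells, 6 were higher (10.5%) and 12 lower (12%). P7.OB.3 cells also had more genes (median 4785, against 2920 in P7.OB.1 and 3227 in P7.OB.2) and more loci genes (19, against 12 and 13), and the part of this in the values was not tested. Crhr1 ran from 2.53 to 337 in P7.OB.3 and was found in 15 of 15 cells, against 2 of 20 P7.OB.1 and 19 of 33 P7.OB.2 cells. Its means were 55.2 in P7.OB.3 and 12.4 in the others, and 40.6% of the P7.OB.3 total came from 1 cell. The log2 fold was 2.07, and 4.63, 1.65 and 0.32 on the 3 plates. Stk39, a kinase that regulates chloride cotransporters, was also in 15 of 15 P7.OB.3 cells and averaged 27.2 there and 4.61 in the others, a log2 fold of 2.33 (5.43, 2.12 and 0.90 on the 3 plates). Dlg2 was found in 1 of 15 P7.OB.3 cells with a mean of 0.267, in 5 of 33 P7.OB.2 cells with a mean of 1.13, and in 14 of 20 P7.OB.1 cells with a mean of 107. The low value of Dlg2 is thus shared by P7.OB.3 and P7.OB.2. In P7.FB.1 (26 cells) against P7.FB.2 (55 cells), 10 genes differed (5 higher, 5 lower; 12.4%). The count was 14 on the plate matched by name alone (20.9%). It was 6 without that plate and 6 without the highest cell of each gene, for which no share of all features is given. The median number of genes per cell was 4525 in P7.FB.1 and 5573 in P7.FB.2. Rit2 averaged 254 in P7.FB.1 and 99.2 in P7.FB.2 (log2 fold 1.35; 1.43, 0.96 and 1.44 on the 3 plates), and Inpp5f 68.1 and 172 (-1.33; -1.25, -1.06 and -1.98).

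At E15.5 the midbrain and forebrain differed in 8 of the 43 genes (5 higher and 3 lower in MB; 8.89% of all features). Tmem163 had the largest log2 fold. It ran from 0 to 961 with a median of 48.5 in E15.5 MB and from 0 to 416 with a median of 0 in E15.5 FB, and was found in 57 of 88 and 18 of 84 cells. The means were 105 and 13.5, the log2 fold was 2.87, and it was 3.79 and 2.21 on plates A and B. Rit2 averaged 168 in E15.5 MB and 81.5 in E15.5 FB (log2 fold 1.04; 0.87 and 1.45 on the plates), in 70 of 88 and 39 of 84 cells. Stk39 averaged 23.3 and 9.04 (1.28), and Srebf1, a transcription factor of lipid synthesis, 21.2 and 7.15 (1.45, which was 0.75 after each cell was scaled to the same total). Bckdk averaged 43.2 in E15.5 MB and 89.6 in E15.5 FB (-1.03, and -0.71 after scaling). Mapt had the highest level of the list at this age, with means of 1389.8 in E15.5 MB and 863 in E15.5 FB.

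E15.MB.2 (20 cells) is the E15.5 midbrain cluster with the dopamine transporter, whose mean was 1005 in E15.MB.2 and 2.61 in E15.MB.1 (68 cells). Between them 11 loci genes differed by at least 2-fold (8 higher, 3 lower; 14.9% of all features). Fgf20 was found in 3 of 20 E15.MB.2 cells and 1 of 68 E15.MB.1 cells, and 52.8% of its E15.MB.2 total came from 1 cell. Its means were 17.3 and 0.516 (log2 fold 3.59). Satb1 was found in 12 of 20 and 16 of 68 cells with means of 44.6 and 8.52 (2.26; 1.66 without the highest cell of each group). Tox3 averaged 32 and 11.6 (1.39), and Sipa1l2 averaged 0.435 and 13.3 (-3.32). Crhr1 was found in 3 of 20 E15.MB.2 cells and 9 of 68 E15.MB.1 cells, with no cell of E15.MB.1 and 1 of E15.MB.2 holding both Fgf20 and Crhr1. Its means were 20.95 and 4.37, a log2 fold of 2.03 that was 2.72 and -2.28 on plates A and B and 0.77 without the highest cell of each group. In E15.MB.2, 70.7% of the Crhr1 total came from 1 cell. That same cell, of plate A, was the highest of E15.MB.2 for Fgf20 (182), Satb1 (552) and Crhr1 (296). The higher means of these genes in E15.MB.2 are therefore not separate observations. E15.MB.2 held nigral and ventral tegmental markers together (Aldh1a1 1012, Otx2 34.4 and Cck 365), so this comparison is not one of nigra-like with ventral tegmental-like cells.

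Between the ages the deposited scale itself shifts. Among features whose mean in either age was 5 or more, the median log2 fold of P7 over E15.5 was -1.86 in MB and -1.95 in FB, and after each cell was scaled to the same total it was -0.48 and -0.46. As deposited, 25 of the 43 genes were at least 2-fold lower at P7 in MB (36.7% of all features) and 0 higher (1.19%). In FB 25 were lower (36.7%) and 0 higher (1.39%). After scaling, 7 were lower (10.2%) and 2 higher (3.94%) in MB, and 4 lower (10.5%) and 3 higher (4.65%) in FB. Cell make-up differs between the ages too. Of the 88 E15.5 MB cells, 68 were of E15.MB.1, where the dopamine transporter averaged 2.61. It averaged 474, 153 and 2078 in P7.MB.1, P7.MB.3 and P7.MB.4, and 0.375 in P7.MB.2, which held 11 of the 75 P7 MB cells. P7 FB was dissected as hypothalamus, and E15.5 FB is named as forebrain alone. The part of either in the folds between the ages was not tested.

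Rit2 was higher at P7 in both regions after scaling, by 1.56 in MB and 2.51 in FB on the log2 scale, while as deposited its means were 180.5 in P7 MB and 168 in E15.5 MB (log2 fold 0.10) and 149 in P7 FB and 81.5 in E15.5 FB (0.86). The share of cells with Rit2, which does not rest on the scale in the same way, was 75 of 75 in P7 MB and 70 of 88 in E15.5 MB, and 75 of 81 in P7 FB and 39 of 84 in E15.5 FB. Rit2 also differed within E15.5 MB, with a log2 fold of 1.15 for E15.MB.2 over E15.MB.1. Slc41a1 was higher at P7 after scaling, by 1.06 in MB and 2.24 in FB, while as deposited it was -0.37 in MB and 0.81 in FB. Slc41a1 was found in 28 of 75 P7 MB and 11 of 88 E15.5 MB cells, and in 24 of 81 P7 FB and 6 of 84 E15.5 FB cells. Mapt in MB was lower at P7 on both scales, by -3.39 as deposited (means of 132 in P7 MB and 1389.8 in E15.5 MB) and -1.89 after scaling. Sipa1l2, Mccc1 and Coro1c were at least 2-fold lower at P7 in both regions after scaling, at -1.75 and -2.00, -1.35 and -1.36, and -1.22 and -1.25 in MB and FB.

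**Figure D4:**
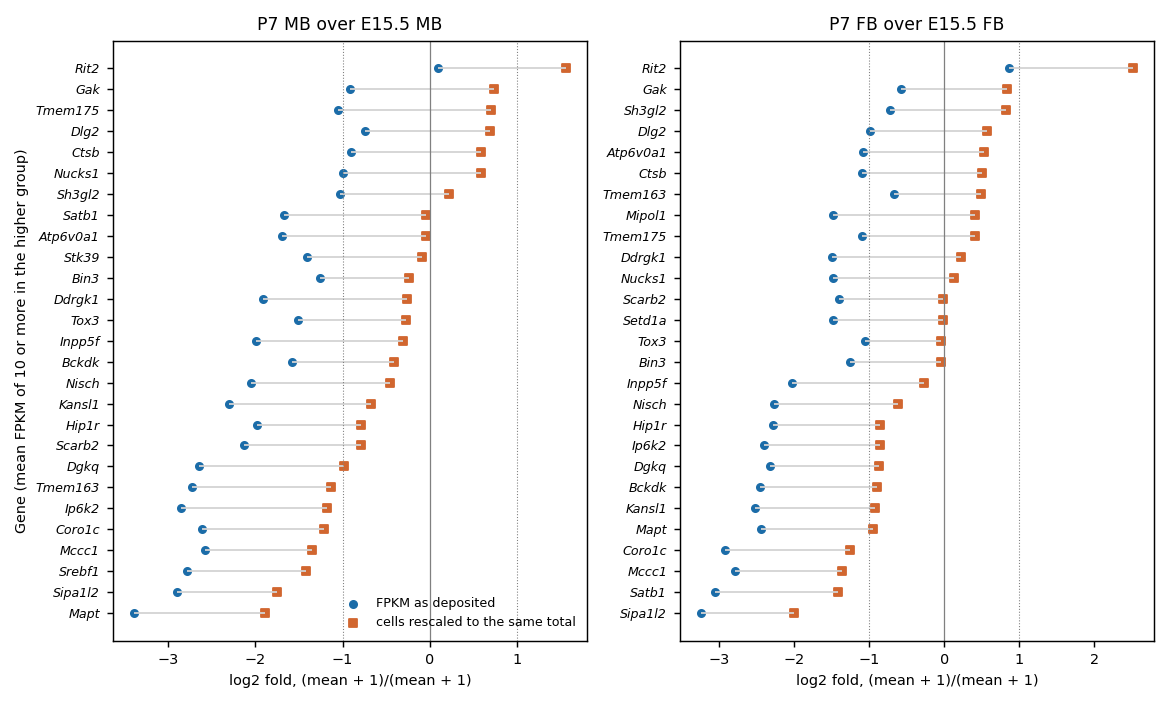
Log2 folds of P7 over E15.5 in midbrain and forebrain for loci genes whose higher group mean reached an FPKM of 10. Circles are FPKM as deposited, squares are cells scaled to the same total, and dotted lines mark 2-fold. The squares lie to the right of the circles, Rit2 is the highest square in both panels and Mapt the lowest in MB at -1.89.

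Genes listed for one locus are set side by side by the number of P7 MB cells that had each. Slc41a1, Rab29 and Nucks1 follow each other in that order and orientation, with gaps of 18.4 and 37.6 kb, and were found in 28, 2 and 75 of 75 P7 MB cells. Acmsd and Tmem163 lie 49.9 kb apart on chromosome 1 with no coding gene between them and were found in 1 and 39 cells. Crhr1 and Mapt lie 55.9 kb apart on chromosome 11 and were found in 19 and 75, and Kansl1, a subunit of a histone acetyltransferase complex that ends 1.14 kb from Mapt, in 44. Gak was found in 73 cells, Tmem175, 0.015 kb from it on the other strand, in 44, and Dgkq, a diacylglycerol kinase, in 32. Tmem175 and Dgkq share 2090 exonic bases on opposite strands, which is 35.3% of the exonic bases of Tmem175, so their reads cannot be told apart there. Bckdk and the histone methyltransferase gene Setd1a lie 104 kb apart with 8 coding genes between them and were found in 35 and 21 cells. Of the exonic bases of Setd1a, 51.8% are shared with another annotated transcript of the same strand. Ccdc62 and Hip1r, which links clathrin coats to actin, lie 3.73 kb apart and were found in 5 and 33 cells. Mccc1 and Lamp3, at one human locus, lie on chromosomes 3 and 16 in the mouse and were found in 16 and 1.

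**Figure D5:**
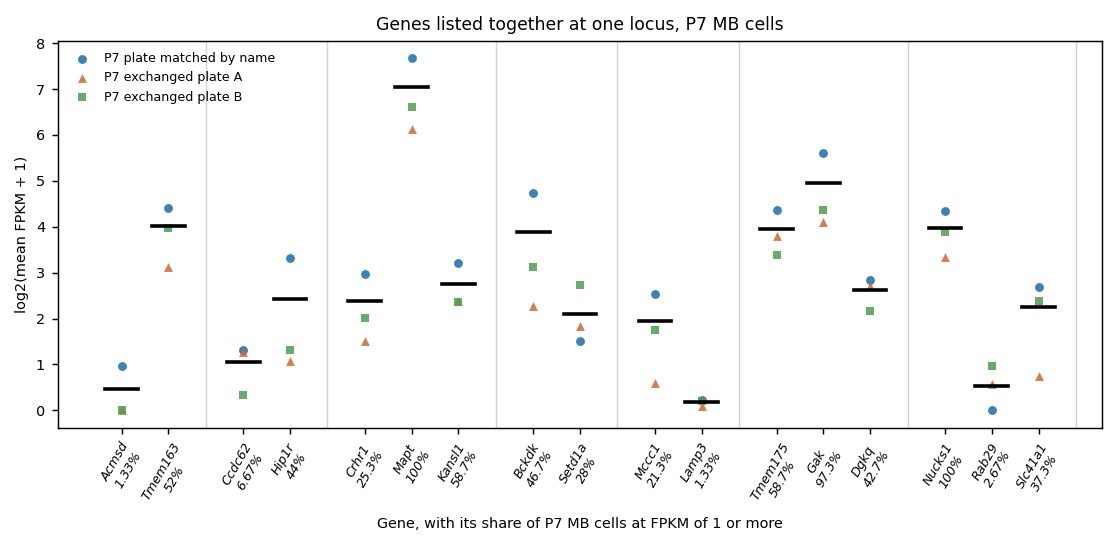
Genes listed together at 1 locus, in P7 MB cells. Each block between grey lines is a locus, black bars are log2(mean FPKM + 1) over 75 cells, symbols are library plate means and the share of cells with the gene stands under its name. Nucks1 at 100% stands beside Rab29 at 2.67%, and Tmem163 at 52% beside Acmsd at 1.33%.

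Protein-coding genes within 200 kb were ranked by their mean in P7 MB cells. Of the 40 loci genes with such a neighbour, 9 had the highest mean of their window, 9 the second highest, and 15 ranked below the middle of it. If each gene of a window were as likely to be highest, 6.26 of the 40 would be. On the plate matched by name 6 had the highest mean. With a window of 1 Mb 6 of 43 did, where 2.55 would if each gene were as likely. Rit2 (180.5) stood above Syt4 (75.4), Mapt (132) above Cdc27 (9.67), Inpp5f (99.4) above Rgs10 (14.3), and Ctsb (51.6) just above Fdft1 (49.5), with which it shares 12.8% of its exonic bases on the opposite strand. Vps13c was highest of its window at a mean of 0.177, where no gene of the window was found widely.

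Wider lists of the same roles were counted in the same comparisons. Of 24 other lysosomal genes, 2 were at least 2-fold higher and 0 lower in P7.MB.4 against P7.MB.1 (median log2 fold 0.21). Of 18 subunits of the lysosomal proton pump and its partners, 0 were higher and 0 lower (0.29), and of 21 genes of clathrin and synaptic endocytosis, 1 was higher and 1 lower (0.27). Over all features, 7.69% differed as much, and over features whose mean in either cluster was 5 or more the median was 0.22. The lysosomal list had 1 gene higher and 6 lower in P7.MB.2 against the other P7 MB cells (median -0.45; 10.1% of all features past 2-fold), and 4 higher and 1 lower in P7.MB.3 (median 0.60; 13%). In P7 MB over P7 FB, where 5.03% of all features differed, the lysosomal, proton pump and endocytosis lists gave 0 and 0, 0 and 1, and 1 and 0 genes higher and lower. In P7 MB over P7 OB, where 13.9% did, they gave 2 and 1, 1 and 1, and 3 and 2.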

How the data were processed

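The deposited table holds FPKM values. HISAT2, Cuffnorm and build mm10 are named in the submitters' processing notes, per the labels' listing of tools; the tool versions and gene annotation are not given in the sources used here. How cells were scaled to each other is not known, depth cannot be recovered from FPKM, and the genes per cell in the labels stand in for it. Gene identifiers were given symbols and coordinates through GENCODE M21 (GRCm38, the assembly of mm10), which named 28636 of 28952 features. Columns of 2 P7 plates were exchanged well by well, 190 cells of which 147 passed. Cells were grouped by the age, region and cluster of the labels, and the 77 cells that did not pass were left out. No doublet caller was run, since wells were filled by sorting.

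The genes, the lists and the comparisons were chosen with earlier results of these data known, and the comparisons of E15.5 midbrain, P7 forebrain and P7 olfactory bulb clusters were added after values were seen. The mean FPKM per group was compared as log2((mean + 1)/(mean + 1)), with 2-fold as the limit (pseudocount 1). The rule for values in full asked for a gene past 2-fold whose higher group mean reached 10. It also asked for the same direction on every library plate and in mean log2(FPKM + 1). Genes that share a locus and genes in under 5% of P7 MB cells were taken as well. Not every gene that met the rule is named, above all between the ages and in the E15.5 midbrain and P7.OB.3 comparisons. A gene left out there did not thereby fail the rule. Others are named as examples of a role or for comparison. The fold step was checked by splitting the P7 FB cells at random and multiplying some features by known folds in a part of them. Groups are single pools, so neither p-values nor standard errors are given, and an SD is the spread over cells. Alternatives were pseudocounts of 0.1 and 10, mean log values, cells scaled to the same total, features reaching a mean of 5, cells with at least 4000 genes, each plate left out, columns by name, and, chosen after seeing the data, plates weighted equally. Promoter sequences come from RefSeq (GRCm38.p6), and 1 withheld sequence is not reported here. Python 3.11.15, numpy 2.4.6, pandas 2.3.3, scipy 1.17.1 and matplotlib 3.10.9 were used.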

Additional observations from a re-analysis of the deposited data

Results flagged for a closer look

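Nucks1 and Usp25 had opposite directions between midbrain and forebrain at the 2 ages on every library plate, and neither difference between the ages was tested. They were picked by looking through the list, and the share of all features that do the same was not counted. The log2 fold of MB over FB for Usp25, a deubiquitinating enzyme, was -0.85 at P7, where 66.3% of the P7 FB total came from 1 cell, and 0.71 at E15.5. That for Nucks1 was 0.25 at P7 and -0.24 at E15.5, so both values lie well within 2-fold.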

How the results depend on the processing

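The counts of genes past 2-fold depended on the setting, and the cause was not tested beyond what a setting itself changes. No share of all features is given for the other pseudocounts, mean log values, the gene minimum or plates left out in turn. Nor is it given without the highest cell, with columns by name or with plates weighted equally, so those counts lack that comparison. A pseudocount of 0.1 gave 8 for P7 MB over FB (1 as reported), 15 for P7 FB over OB (8), 10 for P7.MB.4 over P7.MB.1 (5), and 11 for P7.MB.1 (5) and 12 for P7.MB.4 (4) over the other P7 MB cells. A pseudocount of 10 gave 0 for P7 MB over FB, 3 for MB over OB (10 as reported), 3 for FB over OB, 1 for E15.5 MB over FB (8), 15 for P7 over E15.5 in MB (25) and 14 in FB (25), 2 for P7.MB.4 over P7.MB.1, and 0, 0, 2 and 2 for P7.MB.1, P7.MB.2 (12 as reported), P7.MB.3 (11) and P7.MB.4. Mean log values gave 3 for P7 MB over FB, 13 and 14 for age in MB and FB, and 3, 4 and 6 for P7.MB.1, P7.MB.2 and P7.MB.3. Cells scaled to the same total gave 4 for P7 MB over FB (5.57% of all features) and 5 for E15.5 MB over FB (4.11%). They gave 9 and 7 for age in MB and FB, for which the shares by direction stand with the age results. A mean of at least 5 left 0 for P7 MB over FB, where 340 of 7703 such features were higher and 422 lower. It left 3 for P7.MB.2 (520 of 7637 features higher, 871 lower) and 5 for P7.MB.3 (1091 of 7980 higher, 947 lower). Without the highest cell of each gene P7 MB over FB had 5. Cells with at least 4000 genes gave 2 for P7 MB over FB, 13 for P7 FB over OB and 5 for E15.5 MB over FB. Without the 2 exchanged plates the counts were 3 for P7 MB over FB, 16 for MB over OB, 14 for FB over OB, 10 for P7.MB.4 over P7.MB.1, and 10, 20 and 9 for P7.MB.1, P7.MB.3 and P7.MB.4. With their columns used by name they were 0 for MB over FB, 6 for MB over OB, 1 for FB over OB, 6 for P7.MB.3 and 7 for P7.MB.4. Plates weighted equally, a setting chosen after seeing the data, gave 3 for P7 MB over FB and 2 for P7.MB.1.

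With each plate left out in turn, the counts ran from 1 to 4 for P7 MB over FB, 6 to 13 for MB over OB, 8 to 10 for FB over OB, 10 to 11 for E15.5 MB over FB, 22 to 31 and 21 to 31 for age in MB and FB, 7 to 9 for P7.MB.4 over P7.MB.1, and 3 to 9, 7 to 14, 11 to 14 and 6 to 8 for P7.MB.1, P7.MB.2, P7.MB.3 and P7.MB.4. They ran from 14 to 15 for E15.MB.2 over E15.MB.1, 6 to 14 for P7.FB.1 over P7.FB.2 and 13 to 20 for P7.OB.3.

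A detection threshold of 0.1 left 5 genes in under 5% of P7 MB cells (8 as reported). Scaling to the same total turned the direction of the age fold of Sh3gl2 in MB (0.22) and of Atp6v0a1 (0.53), Tmem175 (0.40), Ddrgk1 (0.22), Nucks1 (0.13) and Ctsb (0.50) in FB. Tmem175 in P7.MB.3 turned to 0.14 with columns by name. Over all alternatives, 57 counts moved by over 1.5 times and 108 did not. For single genes a log2 fold moved if it changed by at least its SD over library plates. That limit differs by gene and is wider where the plates differ more. By that rule 217 values moved, 7 reversed direction and 821 did neither. No paired analysis was possible because replicate numbers only name cells in accession order and cells are not replicates. Regions do share library plates, and within-plate values stand beside the results. Depth is unknown from FPKM, and with 1 pool of animals per group the spread between animals cannot be seen.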
